A study of Homo sapiens with 6 samples.

Results

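The transcripts described here are those of 10 genes of the adherens junction, chosen by name as known parts of the junction: the classical cadherins *CDH1* and *CDH3*, the catenins *CTNNA1*, *CTNNB1* and *CTNND1*, the α-catenin-like gene *CTNNAL1*, the actin-binding partner *VCL*, and *AFDN*, *NECTIN1* and *NECTIN2* of the nectin arm. The list was drawn up with earlier results of these data known. All 10 were among the 12499 genes of the table, and all 10 passed the expression filter that left 12462 genes to test. In HaCaT cell libraries labeled LV-*ATF7*, *NECTIN1*, *CTNND1* and *CDH3* were higher than in the LV-NC control, by 4.47-fold, 3.46-fold and 2.33-fold. *CTNNAL1* was 2.87-fold lower, and *CTNNA1*, *CTNNB1*, *VCL* and *AFDN* were lower by 1.43-fold to 1.58-fold. *NECTIN2* was 1.28-fold higher, and *CDH1* did not pass the test with all 6 libraries.

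At an adherens junction, the extracellular parts of cadherins on neighboring cells bind each other, while the tail inside the cell holds β-catenin and p120-catenin. β-catenin carries α-catenin, which binds actin filaments and, when pulled, exposes a site for vinculin. Nectins form a parallel arm of the same junction and are tied to actin by afadin. In epidermis, E-cadherin is found through the living layers and P-cadherin mainly in the basal layer.

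HaCaT is an immortalized human keratinocyte line. Cells of both groups were infected with lentivirus for 48 hours and then kept in high glucose (HG) for 24 hours, the LV-*ATF7* virus carrying human *ATF7* and the LV-NC virus serving as control. Oligo(dT)-selected mRNA was sequenced from 3 libraries per group, with 16686472 to 20562768 counted reads per library. The promoter of the lentivirus is not given in the sources used here, and nothing there says that the libraries of a group came from separate cultures, so p-values measure only the spread between these libraries. Levels are given as CPM, counts relative to the library total after TMM scaling, and groups were compared by edgeR's quasi-likelihood F test, with p-values adjusted by Benjamini-Hochberg over the 12462 genes and a gene called at an adjusted p under 0.05.

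The targeted gene went against the labels: *ATF7* was at 50.6, 46.4 and 52.2 CPM in LV-NC and at 21.9, 25.7 and 28.0 CPM in LV-*ATF7* by the labels, a log2 fold change of -0.98. Of its exon bases, 43.9% are shared with other genes, 18.25% on the same strand and 27.12% on the opposite strand, some of them on both. These bases are the same for both groups, and their part in the lower count was not tested. The count is a limited check of a viral transcript. Groups are named by label throughout, and every direction below rests on labels that *ATF7* contradicts. Keratinocyte markers were detected, 14 of 14, with a summed level of 2130 to 2904 CPM in LV-NC and 8214 to 9026 CPM in LV-*ATF7*, although *KRT14* lay between 0.375 and 12.5 CPM in all 6 libraries. Of the markers of other cell types, 3 of 10 for fibroblasts, 3 of 11 for macrophages, 2 of 8 for endothelium and 2 of 7 for melanocytes had a row, with summed levels of at most 42.7, 12.7, 89.9 and 24.8 CPM. The endothelial sum lay between 1.12 and 5.50 CPM in LV-NC and between 84.6 and 89.9 CPM in LV-*ATF7*, most of it *CDH5*. The part of these markers in the results below was not tested. LV-NC replicate 1 stood apart from its group, correlating across genes at 0.967 and 0.969 with LV-NC replicates 2 and 3, which correlated with each other at 0.9945.

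Of the 10 adherens junction transcripts, 9 were called: 4 higher and 5 lower in the libraries labeled LV-*ATF7*. Over all genes tested, 67.6% were called, 34.7% higher and 32.9% lower. Of the 10, 6 were called with a change of 1.5-fold or more, against 52.9% of all genes. The libraries of the groups did not overlap for 9 of the 10, against 72.7% of all genes. Against so high a background a count over 10 genes shows little, so each transcript is described by its own values. The median log2 fold change of the 10 was -0.37, beside 0.00 over all genes tested. In bulk libraries, fewer cells expressing a transcript and less of it per cell cannot be told apart.

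**Figure D1:**
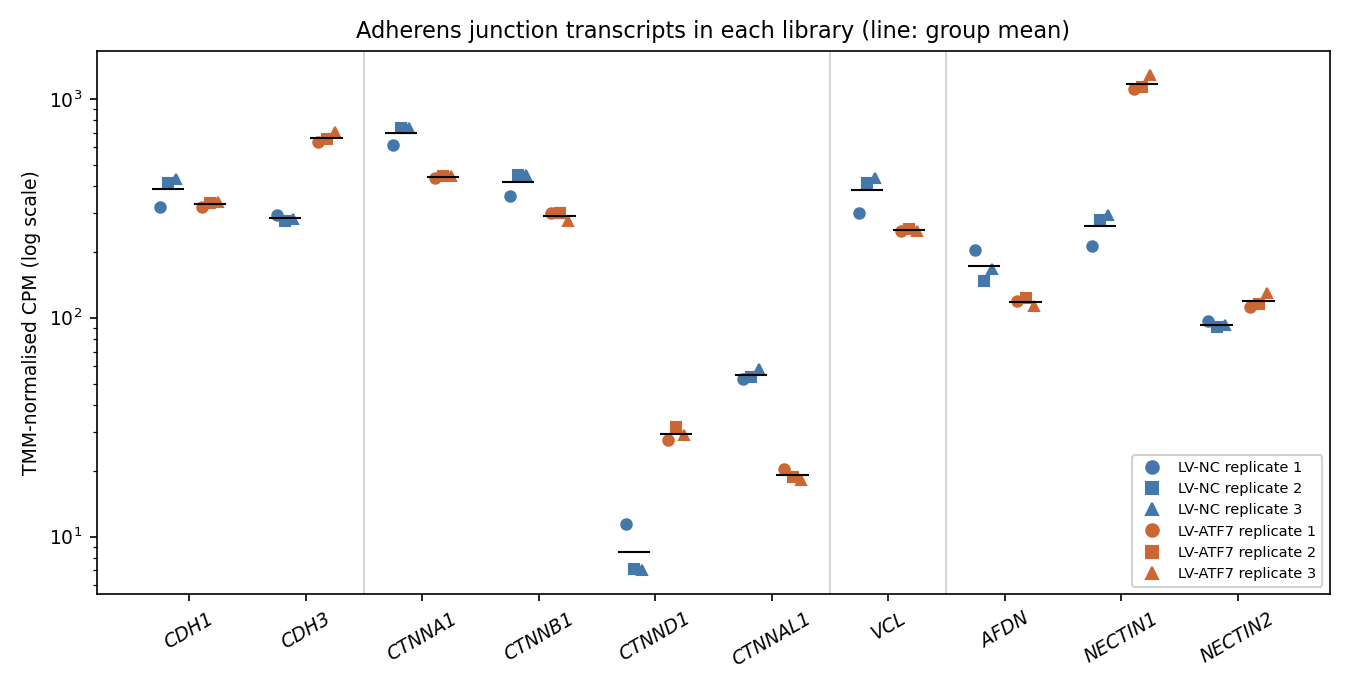
TMM-normalized CPM of the 10 transcripts in each of the 6 libraries, on a log axis (points: libraries, shaped by replicate number; lines: group means of 3). The points of LV-NC and LV-*ATF7* are apart for every gene but *CDH1*, where LV-NC replicate 1, at 319.4 CPM, lies among the LV-*ATF7* libraries.

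*CDH1* and *CDH3* encode E-cadherin and P-cadherin, and they are neighbors. On GRCh38 (GENCODE release 29), *CDH3* (ENSG00000062038) runs from 68636189 to 68722616 on the plus strand of chromosome 16, and *CDH1* (ENSG00000039068) follows on the same strand from 68737225 to 68835548, 14608 bp downstream. *CDH3* was at 295.8, 275.9 and 283.8 CPM in LV-NC and at 633.6, 657.9 and 703.7 CPM in LV-*ATF7*. Every LV-*ATF7* library was thus above every LV-NC library, with means of 285.2 ± 9.97 and 665.1 ± 35.6 CPM (SD, n = 3 each) and a log2 fold change of 1.22 (standard error 0.092, edgeR adjusted p = 1.64e-05). *CDH1* was at 319.4, 414.5 and 428.5 CPM in LV-NC and at 319.2, 333.8 and 338.8 CPM in LV-*ATF7*. Here the groups overlapped, because LV-NC replicate 1 lay inside the LV-*ATF7* range. The log2 fold change of *CDH1* was -0.23 (standard error 0.12, 95% interval -0.52 to 0.06, edgeR adjusted p = 0.137), with an interval that holds both no change and a fall of 0.52. Without LV-NC replicate 1 it was -0.37 (edgeR adjusted p = 9.38e-06). An antisense transcript overlaps 5.62% of the exon bases of *CDH1* and another 11.1% of those of *CDH3*, and the strandedness of the authors' counting is not given in the sources used here.

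The 2 cadherins were then set against each other. Within a library, where scaling cancels, the log2 ratio of *CDH3* to *CDH1* counts was -0.11, -0.59 and -0.59 in LV-NC and 0.99, 0.98 and 1.05 in LV-*ATF7*. The difference of 1.44 is a 2.71-fold higher ratio in LV-*ATF7*, without overlap of the groups (two-sided exact permutation, p = 0.10, which is the floor for 3 libraries against 3), and it was 1.60 without LV-NC replicate 1. Per kilobase of exon, with overlapping exons counted once, *CDH3* made up 42.4% ± 4.71 (SD, n = 3) of the 2 cadherin transcripts in LV-NC and 66.6% ± 0.634 (SD, n = 3) in LV-*ATF7*. Their summed level was 108.5 ± 8.26 CPM per kb in LV-NC and 160.2 ± 7.23 CPM per kb in LV-*ATF7* (SD, n = 3 each). By this length *CDH1* was the more abundant of the pair in each LV-NC library, and *CDH3* in each LV-*ATF7* library. The order in LV-NC rests on the length used, since the mean of the deposited FPKM there was 19.6 for *CDH1* and 20.0 for *CDH3*.

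Among the catenins, *CTNNA1* and *CTNNB1* fell and *CTNND1* rose. *CTNNA1* (ENSG00000044115; chromosome 5, 138610967 to 138935034, plus strand) encodes αE-catenin, the link from β-catenin to actin. Its level was 618.3, 733.1 and 733.4 CPM in LV-NC and 435.1, 444.5 and 442.2 CPM in LV-*ATF7*. The groups were well apart, and the LV-*ATF7* libraries had an SD of only 4.94 CPM. A log2 fold change of -0.66 was fitted (standard error 0.10, 95% interval -0.89 to -0.42, edgeR adjusted p = 6.82e-04). *CTNNB1* (ENSG00000168036; chromosome 3, 41194741 to 41260096, plus strand) encodes β-catenin, which also acts in the nucleus in Wnt signaling. It was at 357.9, 447.3 and 448.3 CPM in LV-NC and at 299.8, 301.2 and 275.2 CPM in LV-*ATF7*, again without overlap. Its log2 fold change was -0.52 (standard error 0.11, 95% interval -0.78 to -0.25, edgeR adjusted p = 0.00433).

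*CTNND1* (ENSG00000198561; chromosome 11, 57753243 to 57819546, plus strand) encodes p120-catenin, which binds the cadherin tail near the membrane and holds cadherins at the surface. It was at 11.4, 7.13 and 7.06 CPM in LV-NC and at 27.6, 31.8 and 29.03 CPM in LV-*ATF7*, from 122 to 212 and 495 to 624 counts per library. On the log2 scale it rose by 1.79 (standard error 0.20, edgeR adjusted p = 1.23e-04), and it was 2.03 without LV-NC replicate 1, the highest of its group. Per kilobase of exon it was the least abundant of the 10 in both groups, as given below with the levels of the others. This level comes with a limit, since 4.64% of the exon bases of *CTNND1* are shared on the same strand with other genes, the *TMX2-CTNND1* read-through among them. How reads on shared bases were counted is not given in the sources used here, and the length behind the deposited FPKM of *CTNND1* is 1.49 times the summed length of its GENCODE release 29 exons. The part of the annotation in its level was not tested.

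*CTNNAL1* (ENSG00000119326; chromosome 9, 108942569 to 109013529, minus strand) encodes α-catulin, a relative of α-catenin. Its levels were 52.3, 53.7 and 58.5 CPM in LV-NC and 20.4, 18.8 and 18.1 CPM in LV-*ATF7*. It showed the deepest fall of the 10, to a narrow band far under the LV-NC libraries. On the log2 scale *CTNNAL1* fell by 1.52 (standard error 0.10, edgeR adjusted p = 1.01e-05), and the change lay between -1.68 and -1.48 over 13 alternative fits.

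*VCL* (ENSG00000035403; chromosome 10, 73995193 to 74121363, plus strand) encodes vinculin, which α-catenin recruits under tension and which also sits at focal adhesions. Its level was 302.2, 412.8 and 436.6 CPM in LV-NC and 248.8, 254.7 and 249.9 CPM in LV-*ATF7*. The LV-NC libraries were all higher, with replicate 1 the nearest to the other group. The log2 fold change was -0.61 (standard error 0.14, 95% interval -0.94 to -0.29, edgeR adjusted p = 0.00516). Exons of *AP3M1* on the opposite strand cover 11.1% of its exon bases. Set against its partner, the log2 ratio of *VCL* to *CTNNA1* was -1.03, -0.83 and -0.75 in LV-NC and -0.81, -0.80 and -0.82 in LV-*ATF7*, a difference of 0.059 (exact permutation test, two-sided, p = 0.70), which does not show that the ratio was equal. Without LV-NC replicate 1 the difference was -0.022.

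**Figure D2:**
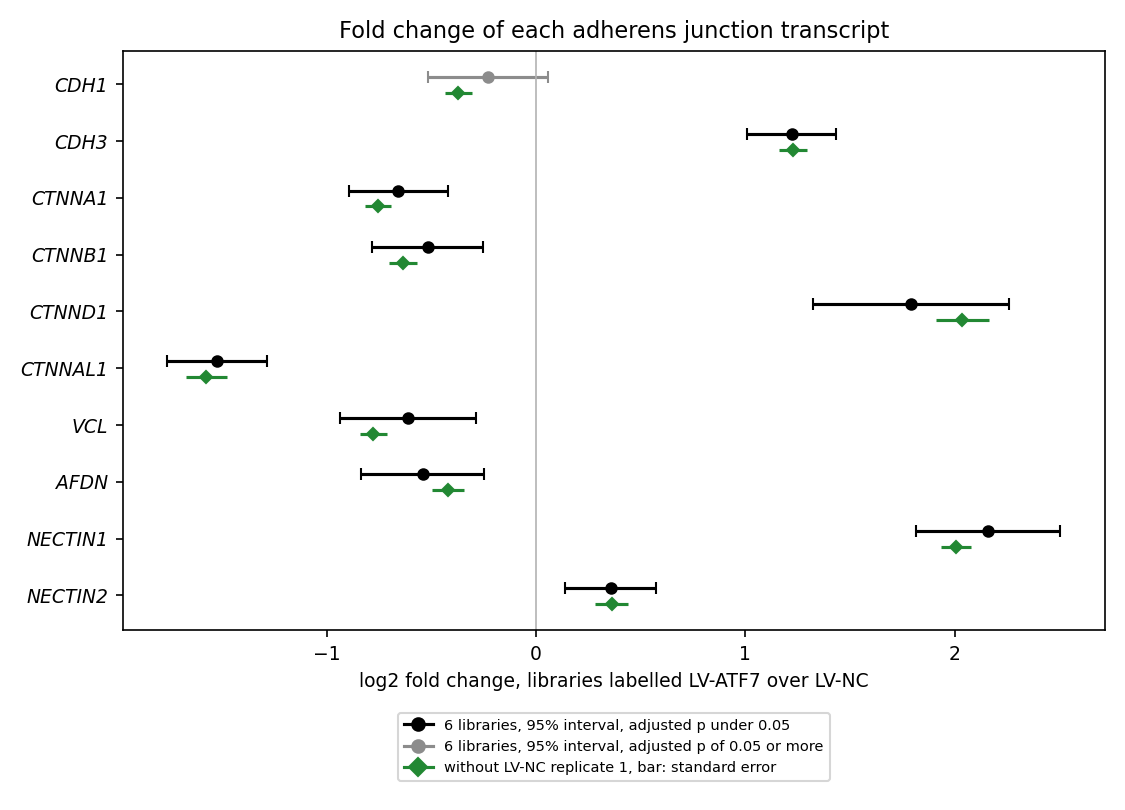
Log2 fold change of each transcript, libraries labeled LV-*ATF7* over LV-NC, with all 6 libraries (circles, 95% interval) and without LV-NC replicate 1 (diamonds, standard error). *CDH1*, at -0.23, is the only interval that crosses 0, and no transcript changed side when LV-NC replicate 1 was left out.

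The nectin arm split by gene. *NECTIN1* (ENSG00000110400; chromosome 11, 119623408 to 119729084, minus strand) encodes nectin-1, an immunoglobulin-like adhesion molecule and an entry receptor for herpes simplex virus. Its level was 211.7, 280.2 and 295.8 CPM in LV-NC and 1108, 1131 and 1279 CPM in LV-*ATF7*. The LV-*ATF7* libraries lay far above the LV-NC libraries, with means of 262.6 ± 44.7 and 1173 ± 92.4 CPM (SD, n = 3 each). The log2 fold change was 2.16 (standard error 0.15, 95% interval 1.81 to 2.50, edgeR adjusted p = 1.10e-05). *NECTIN2* (ENSG00000130202; chromosome 19, 44846175 to 44889228, plus strand), the gene of nectin-2, was at 96.4, 90.5 and 92.3 CPM in LV-NC and at 111.9, 115.3 and 130.1 CPM in LV-*ATF7*. Its libraries did not overlap either, but the change was small, 0.36 on the log2 scale (standard error 0.094, edgeR adjusted p = 0.00985), and the call was lost without LV-NC replicate 3 (0.31, edgeR adjusted p = 0.0514) and with scaling by library size only (0.19, edgeR adjusted p = 0.0999). Within libraries, the log2 ratio of *NECTIN1* to *NECTIN2* was 1.14, 1.63 and 1.68 in LV-NC and 3.31, 3.30 and 3.30 in LV-*ATF7*, a 3.53-fold higher ratio (exact permutation test, two-sided, p = 0.10).

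*AFDN* (ENSG00000130396; chromosome 6, 167826922 to 167972023, plus strand) encodes afadin, which binds the nectin tails and actin. While both nectins rose, *AFDN* was lower, at 204.2, 146.9 and 166.5 CPM in LV-NC and 119.3, 122.9 and 113.2 CPM in LV-*ATF7*. The groups did not overlap, and LV-NC replicate 1 was the highest library. The log2 fold change was -0.54 (standard error 0.13, edgeR adjusted p = 0.00589), and -0.42 without that library.

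ATF7 belongs to a family of factors known to bind the cAMP response element (CRE), whose letters are TGACGTCA on both strands. RefSeq promoter windows, 250 bases before to 50 bases after a start site on GRCh38.p14, were given for 6 of the 10 genes (9 windows, 4 of them of *CTNNA1*). *CDH1*, *CDH3*, *CTNND1* and *NECTIN1* were not among them. The CRE letters were found in 1 window of *CTNNA1*, 21 bases before the start site at 138875400, and in the window of *NECTIN2*, from base 2 after its start site. They occur in 1.85% of all 35116 windows. The stretches with the CRE in capitals are these, at chr5:138875368-138875397 and chr19:44846287-44846316, both on the plus strand:
CTNNA1: tgtatataggcTGACGTCAccggatgacgt
NECTIN2: ggtggatcctgTGACGTCAgcgggttcgaa

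These transcripts moved in opposite directions, *CTNNA1* lower and *NECTIN2* higher, and the *CTNNA1* start site concerned is 1 of several of that gene, which gene counts cannot separate. None of the 9 windows held an AP-1 site (TGACTCA or TGAGTCA, found in 4.95% of all windows). The E-box letters CAGGTG, or CACCTG on the other strand, which are the letters read by the SNAI and ZEB factors known for acting on junction genes, were found in the *AFDN* window only, 4 times, at 150, 126, 114 and 16 bases before the start. At least 1 E-box is in 20.6% of all windows. The 250 bases before the *AFDN* start, at chr6:167827385-167827634 on the plus strand, are shown with the E-boxes in capitals:
AFDN: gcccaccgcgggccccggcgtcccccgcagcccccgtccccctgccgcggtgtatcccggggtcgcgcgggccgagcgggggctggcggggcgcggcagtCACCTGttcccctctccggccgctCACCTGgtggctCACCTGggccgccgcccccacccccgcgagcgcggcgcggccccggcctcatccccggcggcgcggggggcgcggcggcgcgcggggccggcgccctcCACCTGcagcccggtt
A match of letters is a description of the reference genome, and binding was not measured in these libraries.

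Levels of different genes were compared per kilobase of exon. In LV-NC the order was *CTNNA1* (78.7 ± 7.52 CPM per kb), *CDH1* (62.7 ± 9.61), *CDH3* (45.7 ± 1.60), *VCL* (38.4 ± 7.17), *CTNNB1* (35.0 ± 4.35), *NECTIN1* (34.1 ± 5.81), *NECTIN2* (24.8 ± 0.806), *CTNNAL1* (17.5 ± 1.05), *AFDN* (12.6 ± 2.12) and *CTNND1* (0.968 ± 0.279), each a mean ± SD of 3 libraries. Libraries of neighbors in this order overlapped for *VCL* and *CTNNB1* and for *CTNNB1* and *NECTIN1*. In LV-*ATF7* the top 2 were *NECTIN1* (152.3 ± 12.0 CPM per kb) and *CDH3* (106.7 ± 5.71), followed by *CDH1* (53.5 ± 1.64) and *CTNNA1* (49.9 ± 0.559). By this length *NECTIN1* was at rank 6 in LV-NC and rank 1 in LV-*ATF7*, and *CTNNA1* at ranks 1 and 4. By the deposited FPKM, which uses other gene lengths, *NECTIN1* was at rank 1 in both groups and *CTNNA1* at ranks 4 and 5. *NECTIN2* (31.8 ± 2.58), *VCL* (25.1 ± 0.315), *CTNNB1* (24.5 ± 1.22), *AFDN* (8.64 ± 0.359), *CTNNAL1* (6.10 ± 0.369) and *CTNND1* (3.35 ± 0.242) completed the order, where only *VCL* and *CTNNB1* overlapped. The SD was smaller in LV-*ATF7* for 7 of the 10, all but *CDH3*, *NECTIN1* and *NECTIN2*. These SDs are not scaled to the mean. As a percentage of the mean, the SD of *NECTIN1* was 17.0% in LV-NC and 7.88% in LV-*ATF7*, and that of *CTNNAL1* 5.99% and 6.05%.

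**Figure D3:**
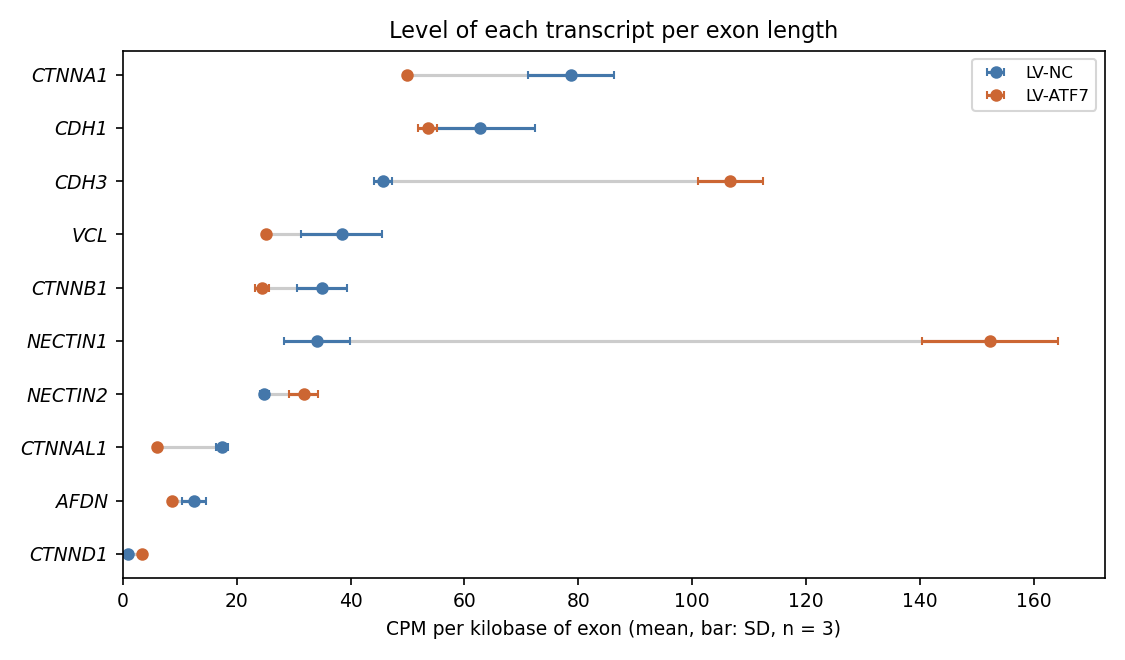
Level of each transcript in CPM per kilobase of exon (points: mean of 3 libraries; bars: SD), ordered by LV-NC. *NECTIN1* and *CDH3* lie far to the right in LV-*ATF7*, at 152.3 and 106.7 CPM per kb, whereas *CTNNA1*, first in LV-NC at 78.7, is at 49.9.

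The balance within the cadherin-catenin complex was followed by count ratios within libraries. The log2 ratio of *CTNNA1* to *CTNNB1* was 0.79, 0.71 and 0.71 in LV-NC and 0.54, 0.56 and 0.68 in LV-*ATF7*, a small change of -0.14. For *CTNND1* to *CTNNB1* the values were -4.98, -5.97 and -5.99 in LV-NC and -3.44, -3.24 and -3.24 in LV-*ATF7*, a change of 2.34. The ratio of *CTNNA1* to *CDH1* was 0.95, 0.82 and 0.78 in LV-NC and 0.45, 0.41 and 0.38 in LV-*ATF7*, a change of -0.44. In LV-*ATF7*, α-catenin transcripts were thus fewer relative to those of E-cadherin, and p120-catenin transcripts were more numerous relative to β-catenin. For α-catenin relative to β-catenin the groups were barely apart. There LV-*ATF7* replicate 3, at 0.68, lay nearer to the lowest LV-NC library, at 0.71, than to the other LV-*ATF7* libraries. The groups were apart in each of these ratios (exact permutation test, two-sided, p = 0.10 for each, the smallest possible). With 6 ratios tested and none able to reach a smaller p, none passes a threshold of 0.05.

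**Figure D4:**
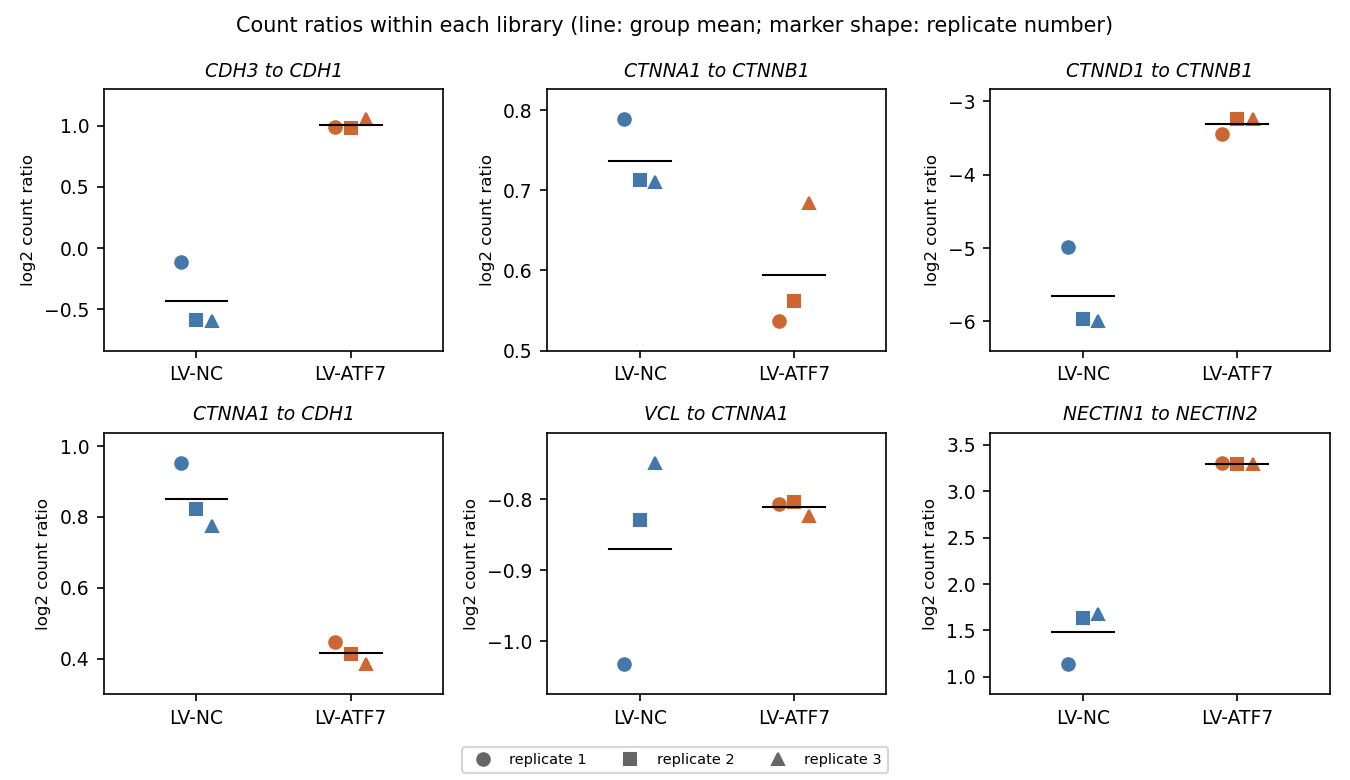
Log2 count ratios of 6 gene pairs in each library (vertical axes: log2 of the ratio of raw counts, with separate scales; blue: LV-NC; orange: LV-*ATF7*; shapes: replicate number; lines: group means). The groups are apart in each panel but *VCL* to *CTNNA1*, where the LV-NC libraries, from -1.03 to -0.75, span those of LV-*ATF7*.

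LV-NC replicate 1 touched most of these values. For 9 of the 10 transcripts it was farther from LV-NC replicates 2 and 3 than these were from each other, and for 8 of the 10 it was displaced toward LV-*ATF7*, the others being *AFDN* and *NECTIN1*. Over all genes too, this library correlated more with the LV-*ATF7* libraries (0.8555 to 0.8622) than LV-NC replicates 2 and 3 did (0.8379 to 0.8432). The shares of all genes to set beside these counts were not computed. The displacement was largest for *CTNND1*, 0.68 on the log2 scale, and reached -0.49 for *VCL*, -0.44 for *NECTIN1* and -0.40 for *CDH1*. Without this library all 10 transcripts were called, with log2 fold changes from -1.57 for *CTNNAL1* to 2.03 for *CTNND1*. Over all genes 10011 were then called, in place of 8429 with all 6 libraries, so the background was higher as well.

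Beyond these 10, 87 other genes of the junction were listed by role, also with earlier results of these data known. Of these, 69 were tested and 53 called, 26 higher and 27 lower. Their median log2 fold change was -0.15, and the libraries did not overlap for 57. Over all genes tested 67.6% were called, 34.7% higher and 32.9% lower, and 72.7% did not overlap, against which these counts and those of each list below are to be read. Of 8 other cadherins tested, 2 were higher and 5 lower. *CDH2*, the gene of N-cadherin, fell from 10.7 ± 1.18 to 1.89 ± 0.534 CPM (mean ± SD of 3 libraries; log2 change -2.49), whereas *CDH5*, the gene of VE-cadherin, rose from 3.08 ± 2.18 to 84.4 ± 2.90 CPM (mean ± SD of 3 libraries; log2 change 4.78, and 4.28 without LV-NC replicate 1). *CDH24* and *CDH4* fell by 1.19 and 1.01, and *CDH8* was higher by 0.78, but the call of *CDH4* was lost on leaving out any 1 library other than LV-NC replicate 1 (edgeR adjusted p from 0.0666 to 0.118). Other nectins and nectin-like genes, 5 tested, had *NECTIN4* (0.68) and *CADM4* (0.77) higher, and *NECTIN3* (-0.84) and *PVR* (-0.68), the poliovirus receptor, lower. The call of *NECTIN4* was lost without LV-*ATF7* replicate 2 (0.65, edgeR adjusted p = 0.0547) or 3 (0.68, edgeR adjusted p = 0.0610), and that of *CADM4* without LV-NC replicate 2 (0.63, edgeR adjusted p = 0.0652), LV-NC replicate 3 (0.62, edgeR adjusted p = 0.0668) or LV-*ATF7* replicate 3 (0.69, edgeR adjusted p = 0.0618). Named after their values were seen, *CDH15* and *CADM2* held 229 and 270 counts over the LV-NC libraries and 1 and 2 over the LV-*ATF7* libraries, a ratio of 231.5 (95% exact interval 41.1 to 9183) and of 136.5 (37.4 to 1133) for counting error only. Both passed the expression filter only through the LV-NC libraries, so a high ratio was given in advance. The counts above of other junction genes called and not overlapping include both. The *CDH15* counts in LV-NC were 28, 118 and 83, a spread that its interval leaves out.

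Of 8 other catenins and p120 partners tested, 3 were higher and 3 lower. *PLEKHA7*, which ties p120-catenin to microtubule ends at the junction, rose from 33.6 ± 8.10 to 94.7 ± 2.16 CPM (SD, n = 3 each), and *KIFC3*, a motor of the same complex, by 1.03 on the log2 scale. *VEZT*, the gene of vezatin, fell by 0.79, and *CTNNBIP1*, an inhibitor of β-catenin binding to TCF factors, fell by 0.80. *JUP*, the gene of plakoglobin, a close relative of β-catenin named here outside the rule for naming genes, was at 1264, 2059 and 2050 CPM in LV-NC and 1298, 1326 and 1498 CPM in LV-*ATF7*. LV-NC replicate 1 lay below all 3 LV-*ATF7* libraries while LV-NC replicates 2 and 3 lay above them, and *JUP* did not pass the test (-0.38, edgeR adjusted p = 0.110), but passed it without that library (-0.60, edgeR adjusted p = 3.66e-09).

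Of 18 actin linkers, 10 were higher and 2 lower. *SORBS3*, the gene of vinexin, rose from 14.0 ± 1.57 to 70.4 ± 3.81 CPM (SD, n = 3 each), and *SORBS2*, of the same vinculin-binding family, had 2 counts over the LV-NC libraries and 382 over the LV-*ATF7* libraries, a ratio of 189.0 (95% exact interval 52.0 to 1566, counting error only). Both of these LV-NC counts were in replicate 3, and without it *SORBS2* had no count in LV-NC. *SORBS2* passed the expression filter only through the LV-*ATF7* libraries, so here too a high ratio was given in advance. The counts of its list and of all other junction genes include it. *TJP1*, the gene of ZO-1, fell by 1.03, and *PARD3*, a polarity scaffold, rose by 1.61. Among 30 genes of junction turnover and signaling, 9 were higher and 14 lower. The Src-family kinase gene *FYN* fell from 24.0 ± 1.85 to 1.21 ± 0.029 CPM (SD, n = 3 each), *TIAM1*, a Rac activator, fell by 1.78 and the receptor phosphatase gene *PTPRM* by 1.22. The phosphatase gene *PTPRF* rose from 94.8 ± 41.5 to 561.8 ± 29.5 CPM (SD, n = 3 each), *ARHGAP35*, the gene of a GTPase-activating protein, rose by 1.05, and *CDC42* by 1.31, although 59.4% of the exon bases of *CDC42* are shared with other genes.

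**Figure D5:**
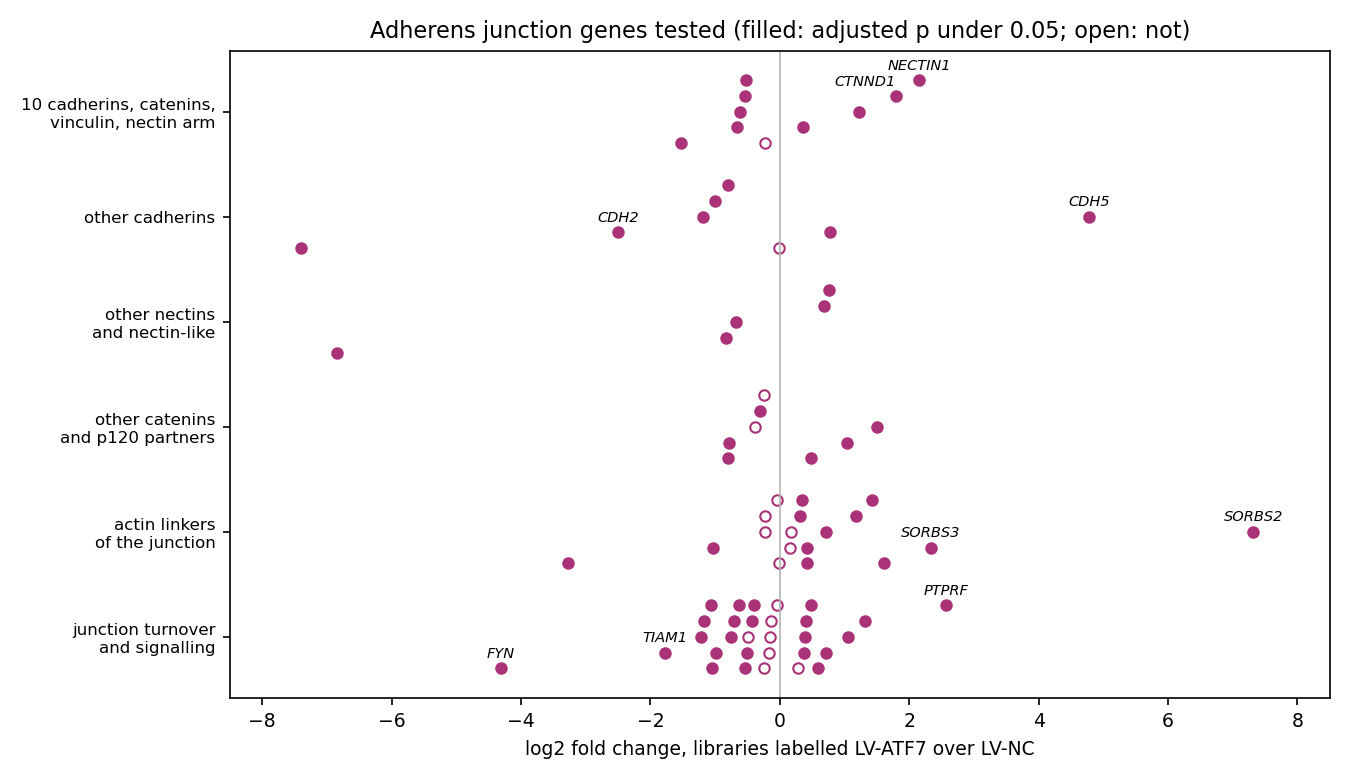
Log2 fold change of the 10 transcripts and of 69 other adherens junction genes by list (each point is a gene; filled, edgeR adjusted p under 0.05; vertical position within a list has no meaning). Changes run in both directions in every list. The farthest points, *SORBS2* on the right and the unlabeled *CDH15* and *CADM2* on the left, rest on groups with 1 or 2 counts, where the fitted size depends on the prior count.

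The genes most like *CTNNA1* in these 6 libraries, by the Euclidean distance of log2 CPM centered on each gene's mean, were *PPP6C* (0.076), *TIMP1* (0.078) and *TAF9* (0.084). For *CDH1* they were *FKBP1A* (0.062), *DNAJC14* (0.066) and *GID8* (0.088). None of the 3 nearest *CDH1* passed the test, with edgeR adjusted p from 0.162 to 0.209, and all 3 nearest *CTNNA1* did, with log2 fold changes from -0.65 to -0.61. As these genes were chosen for likeness over the same 6 libraries, this follows from the choice and is no separate result.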

How the data were processed

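Poly(A) mRNA of 6 HaCaT libraries, 3 labeled LV-*ATF7* and 3 labeled LV-NC, was sequenced on a NovaSeq instrument. Counts of reads on each gene were deposited without normalization, on build GRCh38 per the labels. The aligner, counting program, annotation and strandedness are not given in the sources used here. The authors also deposited FPKM values, used only for an alternative order of levels, and the fold changes, log2 fold changes, p-values and adjusted p-values of their own comparison, which were not used. The smallest sum of counts of a gene over the libraries was 51. Total counts per library were 16686472 to 20562768, and intervals on counts cover counting error only.

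Samples were grouped by label. Counts were scaled by TMM, filtered with filterByExpr and tested with edgeR 4.0.16 (glmQLFit, glmQLFTest) in R 4.3.3 without covariates. The standard error was taken as the log2 fold change divided by the square root of F, and 95% intervals used the total degrees of freedom of that test. Replicates differed by more than sampling noise (chi-square per gene of 2.85 or more), so each library counted as 1. Length was that of GENCODE release 29 exons counted once, matched by gene ID for 12485 of 12499 genes. Ratios of counts within a library were tested by exact permutation (scipy 1.17.1, Python 3.11.15). On simulated counts of 12446 genes for this comparison, 166 of 199 changed genes were called and 7.26% of calls were on unchanged genes. Whether these shares hold for the deposited libraries, where 8429 of 12462 genes were called and LV-NC replicate 1 stood apart, was not tested. Their value at the fold changes of the 10 transcripts was not tested either.

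The members and the other lists were chosen with earlier results of these data known. Genes named from the 5 other junction lists are up to 3 rises and 3 falls, the largest among those called with a fold of at least 1.5 and a mean of at least 50 counts. Others are said to be named outside this rule. 1 gene that the rule selects is not reported here. Alternatives were upper quartile scaling, scaling by library size only, DESeq2 1.42.0, limma 3.58.1 voom with sample quality weights, a minimum of 10 counts in each library, no filter, a replicate block, each library left out, a fold of at least 1.5, 1 count added to each gene of a ratio, and deposited FPKM.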

Additional observations from a re-analysis of the deposited data

How the results depend on the processing

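Of the 10 transcripts, 9 were called under upper quartile scaling, library size only, DESeq2, a minimum of 10 counts in each library, no filter and the replicate block, and 10 under limma voom with sample quality weights. Leaving out single libraries gave 8 to 10, and no log2 fold change of the 10 changed sign in any of the 13 alternative fits. Over all genes, 10391 were called under limma voom and 7290 to 10011 with single libraries left out, in place of 8429. *CDH1* passed the test under library size only (-0.39, adjusted p = 0.0131), limma voom (-0.34, adjusted p = 1.43e-05) and without LV-NC replicate 1 (-0.37, adjusted p = 9.38e-06), with adjusted p up to 0.294 in the others. *NECTIN2* lost its call under library size only (0.19, adjusted p = 0.0999) and without LV-NC replicate 3 (0.31, adjusted p = 0.0514). Library size only shifted the median of all genes by -0.16 and lowered the higher share of calls from 51.3% to 42.4%. Among the other genes named, *CDH4* lost its call under the replicate block (-0.98, adjusted p = 0.0549) and *CADM4* under library size only (0.60, adjusted p = 0.0504), while *JUP* gained one under library size only and limma voom (-0.54 and -0.60). The cause of the other changes was not tested. The log2 ratio of *VCL* to *CTNNA1* reversed to -0.022 without LV-NC replicate 1, in a range from -0.022 to 0.12 over single libraries left out, and no other ratio changed sign. Replicate numbers are those of the sample titles, and the library name of LV-NC replicate 3 carries another number. Same-numbered libraries did not deviate together (correlations 0.0583, -0.0209 and 0.0649), so the numbers were not taken as pairs. The replicate block called 9 of the 10, 50 in place of 53 other junction genes and 8210 in place of 8429 of all genes. By the deposited FPKM, whose implied gene length was 0.669 (*CDH1*), 1.29 (*AFDN*) and 1.49 (*CTNND1*) times the summed exons of all GENCODE transcripts and 0.990 to 1.13 times for the other 7, *NECTIN1* ranked 1, *CDH3* 2 and *CDH1* 3 in both groups, and *CTNNA1* ranked 4 in LV-NC and 5 in LV-*ATF7*. With 3 libraries per group, a ratio cannot reach p under 0.10. The count of *CTNND1* in LV-NC, 122 to 212, is the smallest among the 10 transcripts, and some of the other genes named had fewer.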
